A study of Mus musculus with 6 samples.

Results

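The transcripts described here belong to 34 genes of glycolysis and oxygen sensing, chosen by gene symbol: glucose and lactate carriers, the enzymes between them, the hypoxia-inducible factors (HIFs), their prolyl hydroxylases and a few genes that HIFs switch on. Of the 34 symbols, 30 had a probe set in the platform annotation, out of 19505 genes in the table, and each had only 1. Expression of Gpi1, Pfkfb1, Pfkfb2 and Eno1 was not analysed here. No member was removed for a low value. Salivary glands were taken from mouse embryos at a stage written as T13 and cultured for 72 hours, and total RNA was labelled for Affymetrix arrays. Glands given TGF-β1, a secreted growth factor, made up 3 arrays (TGF-β1 1 to 3) and were set against 3 arrays of glands labelled control (controls 1 to 3). The sources used here do not give strain, gland type, TGF-β1 dose or any pooling of glands. They also do not say whether replicates are separate cultures or animals; each p-value therefore reflects array-to-array spread only, which may be technical.

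Glycolysis splits glucose into pyruvate in the cytosol; hexokinase, phosphofructokinase and pyruvate kinase are its main control points, and lactate dehydrogenase turns pyruvate into lactate when it is not burned in mitochondria. Many of these enzymes exist as several genes whose products differ in tissue and regulation. In oxygenated cells prolyl hydroxylases mark HIF subunits for destruction; at low oxygen HIFs accumulate and raise glycolytic genes, glucose carriers and one of the hydroxylases themselves. Branching embryonic glands kept in culture receive oxygen by diffusion alone.

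A whole gland holds epithelium, mesenchyme, vessels and nerve cells, and in such bulk RNA a change in the share of a cell type and a change of RNA per cell cannot be told apart. The epithelial adhesion gene Epcam was at 10.11, 10.10 and 10.27 in TGF-β1 1 to 3, against 9.63, 8.93 and 6.40 in controls 1 to 3. The summed linear level of 14 gland epithelium markers was 26279 to 33471 in the TGF-β1 arrays, 16754 and 23306 in controls 2 and 1, and 3697 in control 3. Control 3 stood apart from every other array: its Pearson correlation with them over all genes was 0.550 to 0.601, against 0.948 to 0.990 among the other 5. Whether that array failed or carries a wrong label was not tested, and this doubt touches every control mean and every count of groups without overlap that includes it. Among the members it was the lowest array for 18 and the highest for 8 of 30, where it was lowest for 32.4% and highest for 51.9% of all genes. TGF-β1 3 was the next most distant array, at 0.948 to 0.953 with the 4 others. For this reason the groups were compared with limma using array weights, which came to 0.0338 for control 3, 0.398 for TGF-β1 3 and 1.65 to 4.52 for the others; "rose" and "fell" are used where the adjusted p in that fit was under 0.05. The estimation of the weights stopped before it converged. Apart from that, the fit treats the weights as known, which makes its p-values too small.

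Most of the pathway did not pass, and 6 members did. Pfkfb3, which makes the activator of phosphofructokinase, fell by 1.68 ± 0.15 log2 units (SE), and the enolase gene Eno2 fell by 0.87 ± 0.18. Aldoc, an aldolase, rose by 2.08 ± 0.27, the prolyl hydroxylase gene Egln3 by 1.19 ± 0.21, the hexokinase gene Hk1 by 0.96 ± 0.26 and the triose phosphate isomerase gene Tpi1 by 0.66 ± 0.18. These 6 of 30 compare with 6.88% of all genes in the same fit. By direction they were 4 higher against 3.45% of all genes, and 2 lower against 3.44%. The median difference of the 30 was 0.03, against 0.01 for all genes.

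Without control 3 and TGF-β1 3, the unweighted fit of the remaining 4 arrays passed 3 members, namely Hk1, Pfkfb3 and Aldoc, where 2.59% of all genes passed. By direction these were 2 higher, against 1.14% of all genes, and 1 lower, against 1.45%. The unweighted limma fit of the 6 arrays passed 0 of 30 members and 0% of all genes, with 4 members and 389 genes at an unadjusted p under 0.05; the 4 were Pfkfb3, Aldoc, Eno2 and Egln3. The unweighted limma fit of 5 arrays without control 3 also passed 0 genes, with 7 members and 1487 genes at an unadjusted p under 0.05. Unweighted differences over 6 arrays were 2.12 ± 0.59 for Aldoc, 1.79 ± 0.56 for Egln3, 1.75 ± 0.80 for Tpi1, 1.06 ± 0.76 for Hk1 and -0.97 ± 0.31 for Eno2, with an adjusted p of 0.776 for each. In that fit the median difference was 0.41 over the members, -0.14 over all genes and 1.13 over 12 genes that every cell uses. Control 3 was the lowest array for all 12 of these genes. Without control 3 and TGF-β1 3 the median was 0.0043 over the members and 0.0056 over all genes. The array-weighted fit also passed no member when control 1, control 2, TGF-β1 1 or TGF-β1 2 was left out. In the plot of all member values control 3 is the far point of most rows.

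**Figure D1:**
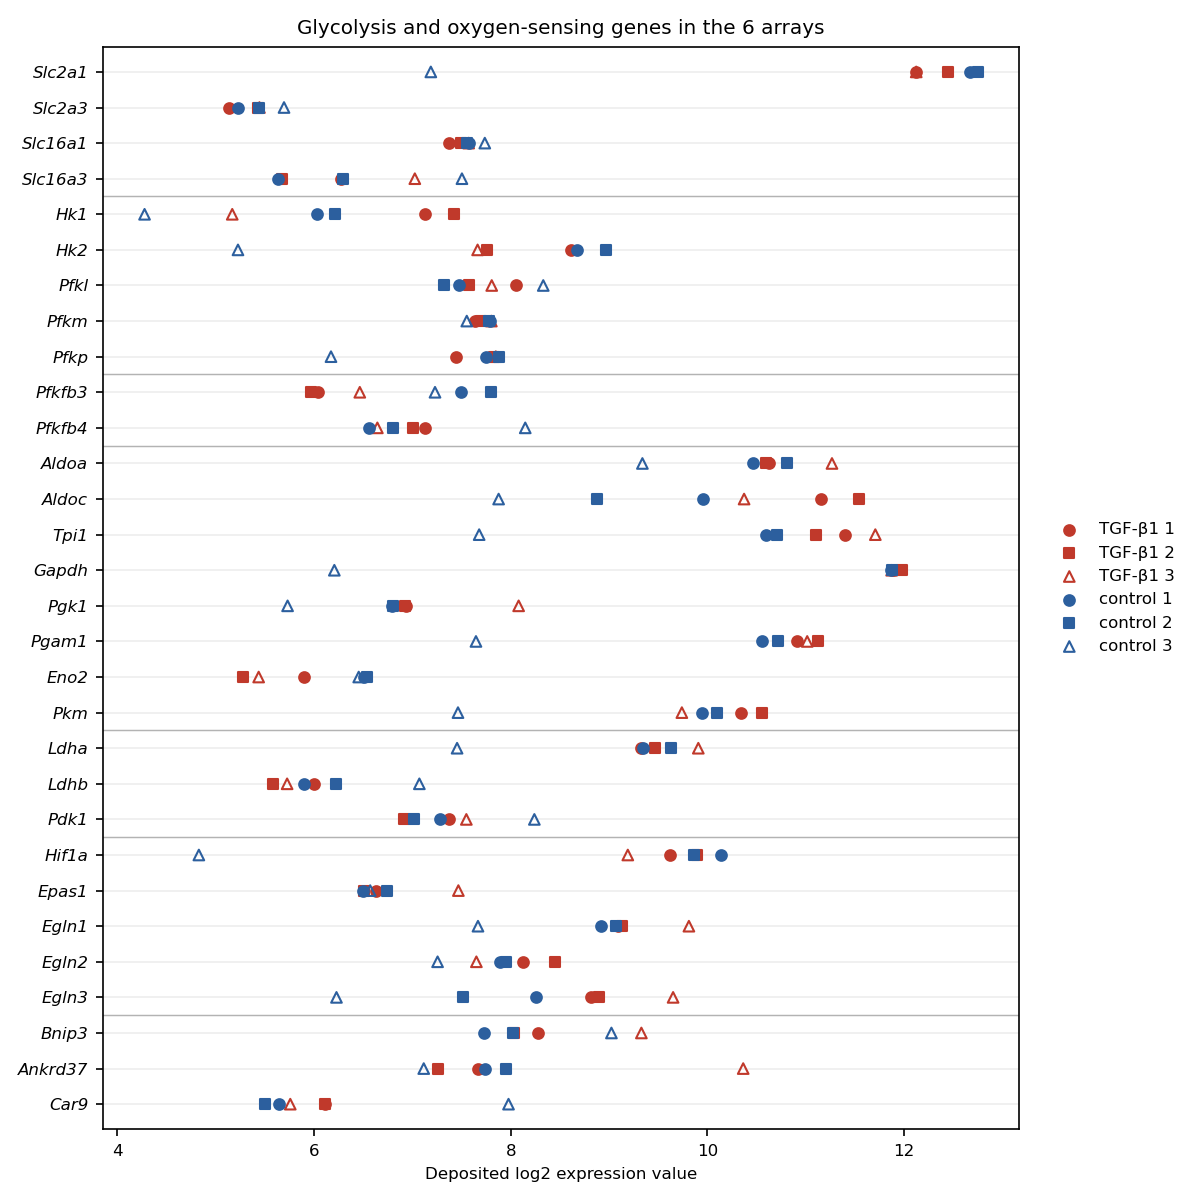
Deposited log2 value of each of the 30 measured members (rows, grouped by role) in the 6 arrays; red marks are TGF-β1 arrays, blue marks controls, and open triangles are TGF-β1 3 and control 3. Control 3 was the lowest array for 18 members and the highest for 8.

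Pfkfb3 (Entrez 170768) encodes a bifunctional enzyme whose kinase activity makes fructose 2,6-bisphosphate, a strong activator of phosphofructokinase 1. Its log2 value was 6.04, 5.96 and 6.46 in TGF-β1 1 to 3, against 7.49, 7.80 and 7.23 in controls 1 to 3. The groups did not overlap, and control 3 was the lowest control but still above every TGF-β1 array. The means were 6.16 ± 0.27 with TGF-β1 and 7.51 ± 0.29 in the controls (SD, n = 3 each), and limma's array-weighted adjusted p was 1.89e-04. Without control 3 and TGF-β1 3 the difference was -1.65 ± 0.16 (adjusted p = 0.0124 in limma), and in the unweighted fit of 6 arrays it was -1.35 ± 0.33 (adjusted p = 0.776). Its paralogue Pfkfb4 was at 7.13, 7.01 and 6.64 with TGF-β1 and at 6.56, 6.81 and 8.15 in the controls, and did not pass (0.32 ± 0.15). Whether these paralogues differed from each other in their change was not tested.

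Aldoc (Entrez 11676) encodes aldolase C, the isoform best known from brain, which splits fructose 1,6-bisphosphate. It was at 11.15, 11.55 and 10.37 in TGF-β1 1 to 3, against 9.96, 8.88 and 7.88 in controls 1 to 3. All TGF-β1 arrays lay above all controls, but the controls were spread over more than 2 log2 units. The adjusted p was 0.0013 in the array-weighted fit and 0.0379 without control 3 and TGF-β1 3, where the difference was 1.93 ± 0.34. The array-weighted difference was 1.04 without TGF-β1 1 and 0.85 without TGF-β1 2. Aldoa, the ubiquitous aldolase, was at 10.62, 10.60 and 11.27 with TGF-β1 and at 10.47, 10.81 and 9.34 in the controls. Its difference was -0.06 ± 0.16 (adjusted p = 0.899 in limma's array-weighted fit), and its sign turned in the unweighted fit (0.62).

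Eno2 (Entrez 13807) encodes the neuron-type enolase, which makes phosphoenolpyruvate. It was at 5.90, 5.28 and 5.44 in TGF-β1 1 to 3, against 6.51, 6.54 and 6.45 in controls 1 to 3. The groups did not overlap and the controls lay within 0.1 of each other, and the SD was 0.32 with TGF-β1 and 0.04 in the controls. Eno2 was dim in TGF-β1 2 and 3, where the lower quartiles of the arrays were 5.11 and 5.13. Its adjusted p was 0.0149 in the array-weighted fit and 0.0747 without control 3 and TGF-β1 3, where the difference was -0.94 ± 0.22. Of 11 neuron markers, 5 rose and 0 fell, where 3.45% of all genes rose and 3.44% fell. Their summed linear level was 2195 to 3294 with TGF-β1 and 1363 to 1642 in the controls. Chrna3, a nicotinic receptor subunit of autonomic ganglia, rose by 1.26 ± 0.17, Stmn2, a protein of growing axons, by 0.72 ± 0.18, and Tubb3, the neuronal β-tubulin, by 0.66 ± 0.16. Of these 5, only Chrna3 also passed without control 3 and TGF-β1 3 (adjusted p = 0.0273). Among 6 markers of glia and Schwann cells 1 rose, Sox10, a transcription factor of glia that is also on the gland epithelium list, by 1.13 ± 0.18. The glial list summed to 1306 to 1716 with TGF-β1, against 840 to 1158 for controls. The part of neurons and glia in the changes of Aldoc and Eno2 was not tested.

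Hk1 (Entrez 15275), the widely expressed hexokinase that traps glucose in the cell, was at 7.13, 7.42 and 5.17 in TGF-β1 1 to 3, against 6.03, 6.22 and 4.28 in controls 1 to 3. TGF-β1 3 thus lay below controls 1 and 2, and the groups overlapped. The adjusted p was 0.0496 in the array-weighted fit and 0.0251 without control 3 and TGF-β1 3 (1.15 ± 0.17). With only control 3 left out and no weights the difference was 0.45 (adjusted p = 0.942). The array-weighted difference was 0.29 without TGF-β1 1, 0.14 without TGF-β1 2, 1.87 without control 1 and 1.96 without control 2. Hk2, the insulin- and hypoxia-responsive hexokinase, was at 8.61, 7.76 and 7.66 in the TGF-β1 arrays, against 8.68, 8.97 and 5.23 in the controls. It differed by -0.60 ± 0.26 and did not pass (adjusted p = 0.212).

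Tpi1 (Entrez 21991) interconverts the triose phosphates that aldolase releases. It was at 11.40, 11.11 and 11.71 in TGF-β1 1 to 3, against 10.59, 10.71 and 7.68 in controls 1 to 3. The groups did not overlap, and control 3 was about 3 units below the other controls. The adjusted p was 0.0452 in the array-weighted fit and 0.112 without control 3 and TGF-β1 3, where the difference was 0.60 ± 0.16. The array-weighted difference was 2.13 without control 1, 2.18 without control 2 and 1.01 without TGF-β1 2.

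**Figure D2:**
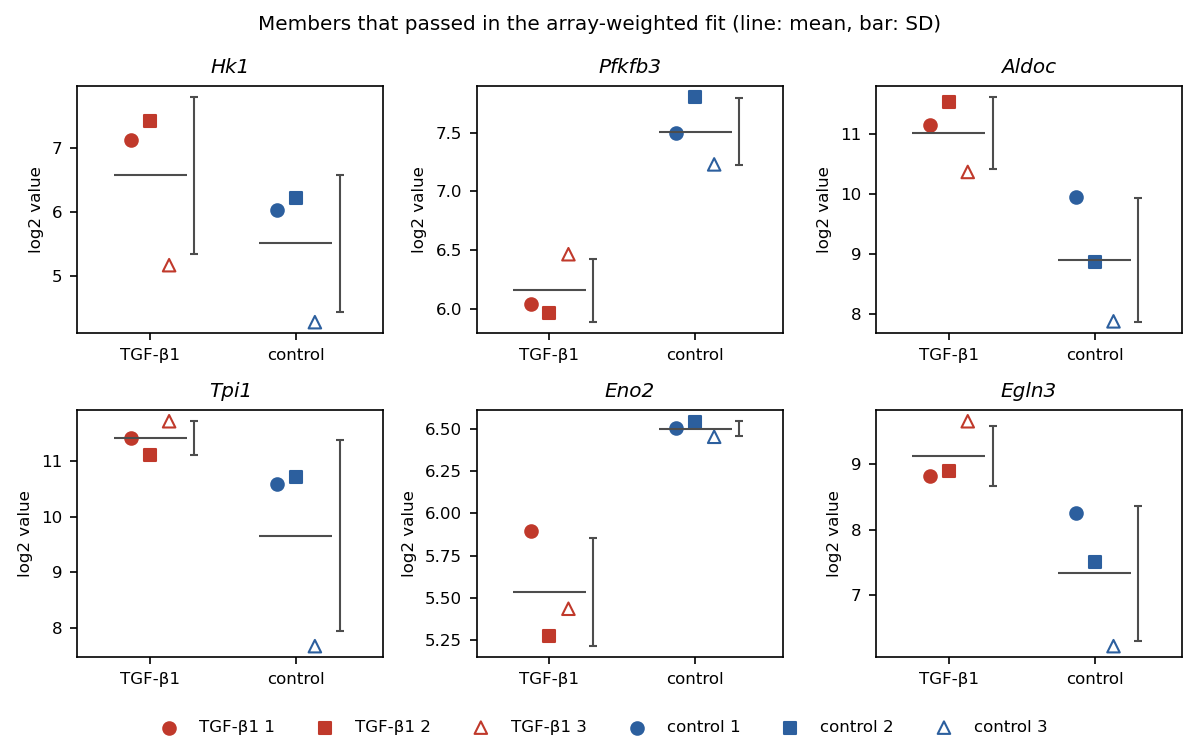
Log2 values of the 6 members that passed in the array-weighted limma fit, TGF-β1 arrays on the left and controls on the right of each panel; lines are means and bars SD (n = 3 each), and each panel has its own scale. The groups overlap for Hk1 and for none of the other 5.

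Egln3 (Entrez 112407) encodes PHD3, a prolyl hydroxylase that acts on HIF subunits and is itself a HIF target. It was at 8.82, 8.90 and 9.65 in TGF-β1 1 to 3, against 8.26, 7.51 and 6.23 in controls 1 to 3. All TGF-β1 arrays lay above all controls, with control 3 the lowest array. Limma's array-weighted adjusted p was 0.0064, and without control 3 and TGF-β1 3 it was 0.0945, with a difference of 0.97 ± 0.24. Leaving out control 1 gave an array-weighted difference of 2.02, and leaving out TGF-β1 3 gave 0.63. Egln1, which encodes PHD2, the main hydroxylase of HIF-1α, was at 9.09, 9.13 and 9.81 with TGF-β1 and at 8.92, 9.07 and 7.67 in the controls. These groups did not overlap either, yet TGF-β1 1 and control 2 were nearly equal and the difference of 0.12 ± 0.16 did not pass. Egln2, which encodes PHD1, differed by 0.27 ± 0.16 and did not pass.

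The HIF subunits themselves did not pass. Hif1a, the oxygen-labile subunit found in most cells, was at 9.62, 9.90 and 9.19 in the TGF-β1 arrays, against 10.14, 9.87 and 4.83 in the controls, a difference of -0.23 ± 0.22 (adjusted p = 0.645 in limma's array-weighted fit). Its unweighted difference was 1.29 ± 1.33, and without control 3 and TGF-β1 3 it was -0.25 ± 0.17. Epas1, which encodes HIF-2α, was at 6.63, 6.51 and 7.47 with TGF-β1 and at 6.50, 6.74 and 6.57 in the controls, a difference of -0.04 ± 0.17. Both proteins are regulated by their stability, which an RNA array does not measure.

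Promoters with the HIF binding core are shown for 3 members that passed (Pfkfb3, Aldoc and Egln3) and for Ankrd37, whose values stood out in 1 array, so that sequence and values can be set side by side. Each is the stretch from 250 bases before to 50 after a RefSeq start (GRCm38.p6), printed 5′ to 3′ on the gene's strand. Capitals mark the core, searched as ACGTG and GCGTG and, for the opposite strand, as CACGT and CACGC; the run CACGTG counts on both strands.
Pfkfb3 first listed start, chr2:11553880-11554179 (- strand): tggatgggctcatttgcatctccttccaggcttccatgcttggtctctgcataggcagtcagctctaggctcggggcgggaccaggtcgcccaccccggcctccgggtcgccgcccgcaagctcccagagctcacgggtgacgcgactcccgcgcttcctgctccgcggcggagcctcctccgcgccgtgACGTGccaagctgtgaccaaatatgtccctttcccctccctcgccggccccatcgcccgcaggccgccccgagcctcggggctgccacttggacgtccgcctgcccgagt
Pfkfb3 other listed start, chr2:11502041-11502340 (- strand): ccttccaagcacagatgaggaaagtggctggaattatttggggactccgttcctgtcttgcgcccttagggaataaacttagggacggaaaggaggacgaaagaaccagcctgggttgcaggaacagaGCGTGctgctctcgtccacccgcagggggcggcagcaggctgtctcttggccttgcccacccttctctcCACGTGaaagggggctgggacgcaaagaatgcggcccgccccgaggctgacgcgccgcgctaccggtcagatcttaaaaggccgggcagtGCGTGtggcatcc
Aldoc first listed start, chr11:78322823-78323122 (+ strand): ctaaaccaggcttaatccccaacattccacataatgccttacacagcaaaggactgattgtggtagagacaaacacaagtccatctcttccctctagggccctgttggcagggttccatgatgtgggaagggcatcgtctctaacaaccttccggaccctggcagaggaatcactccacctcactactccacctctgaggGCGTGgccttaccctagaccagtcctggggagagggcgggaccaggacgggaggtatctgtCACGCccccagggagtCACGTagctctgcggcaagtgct
Egln3, chr12:54203825-54204124 (- strand): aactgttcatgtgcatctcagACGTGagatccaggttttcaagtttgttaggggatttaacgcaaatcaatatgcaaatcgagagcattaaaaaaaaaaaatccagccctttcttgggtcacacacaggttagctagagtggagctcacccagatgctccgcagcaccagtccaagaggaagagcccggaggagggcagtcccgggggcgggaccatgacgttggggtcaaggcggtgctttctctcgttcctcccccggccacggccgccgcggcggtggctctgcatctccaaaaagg
Ankrd37, chr8:45999801-46000100 (- strand): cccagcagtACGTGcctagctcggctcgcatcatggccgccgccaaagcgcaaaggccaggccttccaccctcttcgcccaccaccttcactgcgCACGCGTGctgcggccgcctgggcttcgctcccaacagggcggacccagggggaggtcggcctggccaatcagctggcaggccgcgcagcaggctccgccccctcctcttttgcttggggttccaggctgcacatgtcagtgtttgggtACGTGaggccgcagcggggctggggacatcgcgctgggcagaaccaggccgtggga
The core was in the first listed promoter of 25 of the 32 symbols with an entry, and of 23 of the 28 among them that were measured, against 43.8% of the first listed promoters of all 27025 genes, without matching for base composition. Among the 6 members that passed, the first listed promoter held 3 cores for Aldoc, 1 each for Pfkfb3 and Egln3, and 0 for Hk1, Tpi1 and Eno2. The other listed start of Hk1 held 5 and that of Pfkfb3 held 4. Ldha, which did not pass, held 7. These matches are descriptions of letters and not binding sites.

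The carriers at the 2 ends of the pathway did not pass. Slc2a1, the glucose carrier GLUT1, was among the brightest members, at 12.12, 12.45 and 12.12 in the TGF-β1 arrays, against 12.67, 12.75 and 7.19 in the controls. The TGF-β1 arrays lay just below controls 1 and 2, and the difference was -0.47 ± 0.22 (adjusted p = 0.269). Slc2a3, the neuron-type carrier GLUT3, differed by -0.14 ± 0.15 and was dim, at 5.13 to 5.44 with TGF-β1 and 5.23 to 5.69 in the controls, where the lower quartile of an array lay between 5.11 and 5.79. Slc16a1, the lactate carrier MCT1, differed by -0.14 ± 0.13. Slc16a3, the lactate exporter MCT4, was at 6.28, 5.67 and 7.02 with TGF-β1 and at 5.63, 6.29 and 7.50 in the controls, a difference of -0.01 ± 0.24.

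The phosphofructokinase genes did not pass. Pfkl, the liver-type subunit, had the smallest adjusted p of the family (0.0964) and differed by 0.51 ± 0.17. It was at 8.05, 7.58 and 7.81 in the TGF-β1 arrays, against 7.47, 7.32 and 8.33 in the controls. Pfkp, the platelet-type subunit, differed by -0.24 ± 0.16 and Pfkm, the muscle-type subunit, by -0.11 ± 0.13. Pfkm was the steadiest of the 3, between 7.64 and 7.80 with TGF-β1 and 7.55 and 7.79 in the controls.

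The other enzymes of lower glycolysis did not pass. Gapdh, glyceraldehyde 3-phosphate dehydrogenase, was at 11.89, 11.98 and 11.88 in the TGF-β1 arrays, against 11.87, 11.88 and 6.21 in the controls. Its difference was 0.08 ± 0.22 in the array-weighted fit and 1.93 ± 1.44 without weights. Pgam1, phosphoglycerate mutase, differed by 0.33 ± 0.17 and Pkm, pyruvate kinase, by 0.34 ± 0.17, and neither passed. Pgk1, phosphoglycerate kinase, was at 6.94, 6.92 and 8.08 in the TGF-β1 arrays, against 6.79, 6.80 and 5.73 in the controls. Its groups did not overlap, but TGF-β1 1 and 2 were within 0.2 of controls 1 and 2, and the difference was 0.20 ± 0.18. With all 6 arrays, 6 members had higher groups without overlap, against 5.80% of all genes, and 2 had lower ones, against 5.78%. Without control 3 these counts were 9 higher, against 12.8%, and 4 lower, against 12.3%.

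At the fork after pyruvate no member passed. Ldha, the lactate dehydrogenase subunit that HIF raises, was at 9.33, 9.47 and 9.91 in the TGF-β1 arrays, against 9.35, 9.63 and 7.45 in the controls, a difference of -0.14 ± 0.17. Ldhb, the subunit of oxidative tissues, differed by -0.30 ± 0.17. Pdk1, a mitochondrial kinase that inhibits pyruvate dehydrogenase, was at 7.37, 6.91 and 7.55 in the TGF-β1 arrays, against 7.28, 7.01 and 8.24 in the controls, and differed by 0.14 ± 0.17.

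**Figure D3:**
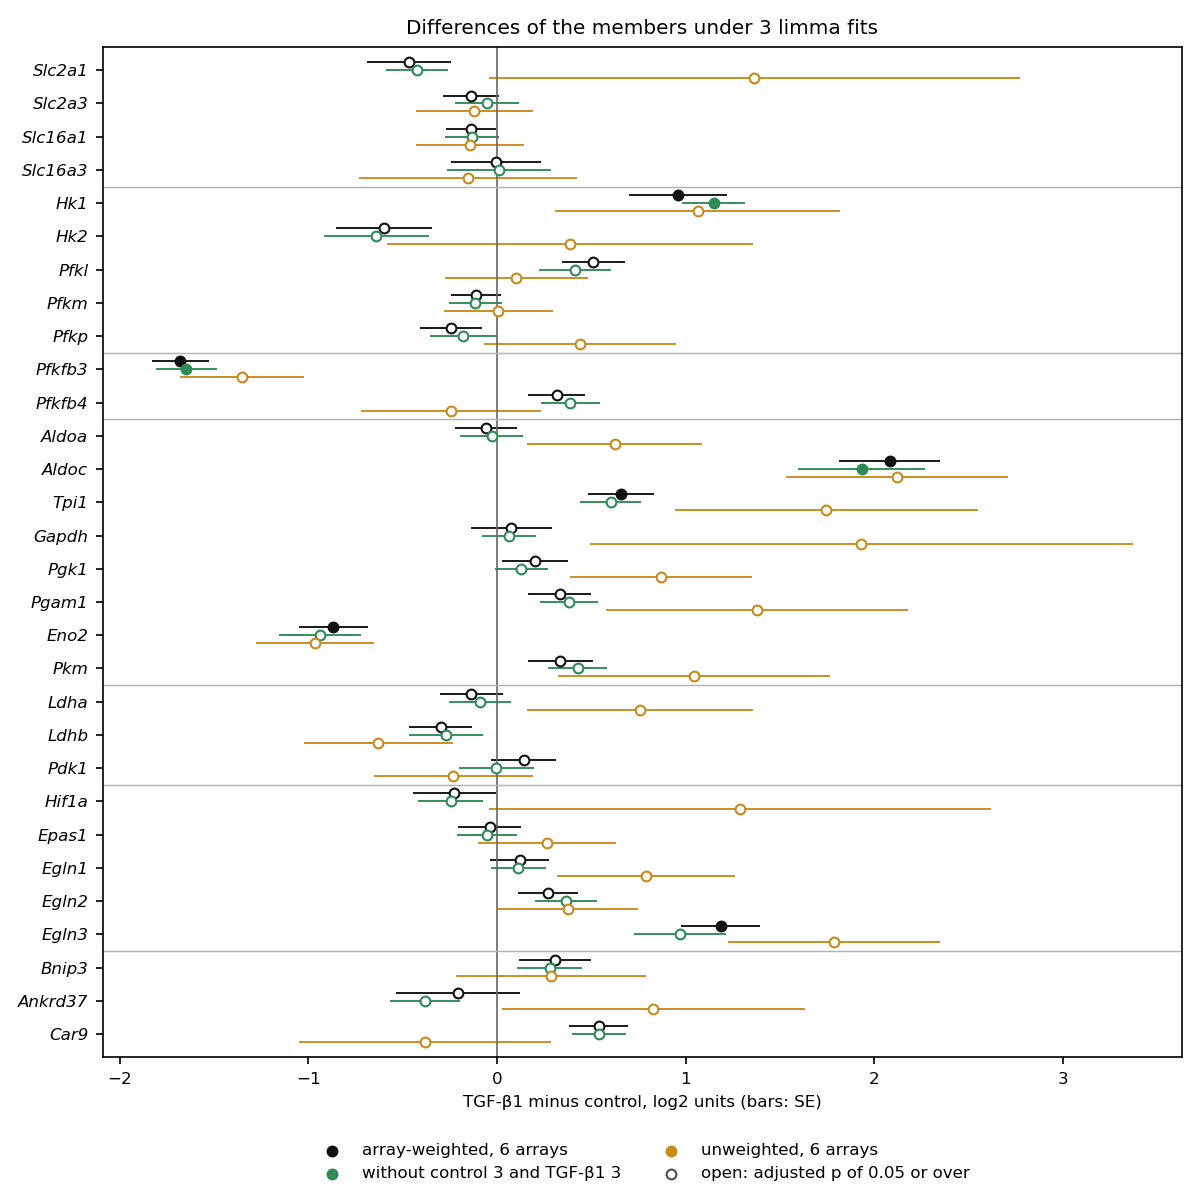
TGF-β1 minus control difference of each member in log2 units with its SE, under 3 limma fits: array-weighted (black), without control 3 and TGF-β1 3 (green) and unweighted with 6 arrays (ochre); filled points have an adjusted p under 0.05. In the unweighted fit Gapdh lies at 1.93 and Hif1a at 1.29, with wide bars, against 0.08 and -0.23 in the array-weighted one.

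The members listed as hypoxia-response genes did not pass. Ankrd37, an ankyrin-repeat protein whose gene is a HIF-1 target, reached 7.67, 7.26 and 10.37 in TGF-β1 1 to 3, against 7.74, 7.95 and 7.12 in the controls. TGF-β1 3 was above all other arrays, and the difference was -0.21 ± 0.33. Bnip3, a mitochondrial protein of mitophagy induced by hypoxia, was at 8.28, 8.03 and 9.33 in the TGF-β1 arrays, against 7.73, 8.03 and 9.02 in the controls, a difference of 0.31 ± 0.19. Its highest arrays were TGF-β1 3 and control 3. Car9, the membrane carbonic anhydrase IX and a classic HIF-1 target, was at 6.11, 6.11 and 5.76 in the TGF-β1 arrays, against 5.64, 5.50 and 7.98 in the controls. It differed by 0.54 ± 0.16 and did not pass (adjusted p = 0.0637), with the opposite sign in the unweighted fit (-0.38).

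TGF-β1 3 was also set against the other TGF-β1 arrays, a contrast chosen after the values were seen and given without a test. Over the mean of TGF-β1 1 and 2, it was higher by 2.90 for Ankrd37, by 1.17 for Bnip3, by 1.15 for Pgk1, by 1.05 for Slc16a3 and by 0.90 for Epas1. It was lower for Hk1 (-2.11), Aldoc (-0.98) and Pkm (-0.71). Between the 10th and 90th percentiles, all genes ran from -0.65 to 0.82 in this contrast; 5 members lay above that range and 3 below it. Leaving control 3 aside, TGF-β1 3 was the highest array for 13 of 30 members, where this held for 31.2% of all genes. Among 48 other known HIF targets, 15 lay above the 90th percentile and 4 below the 10th. Fam162a, a mitochondrial protein induced by hypoxia, reached 9.95, 9.80 and 11.94 in TGF-β1 1 to 3, against 10.16, 10.13 and 8.13 in controls 1 to 3. Ndrg1, a stress-responsive gene, reached 8.26, 7.99 and 10.19 in TGF-β1 1 to 3, against 9.25, 9.84 and 7.78 in the controls.

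Markers of several other cell types were also high in TGF-β1 3, while those of some others were low. The gland epithelium list summed to 33471 in TGF-β1 3, against 28201 and 26279 in TGF-β1 1 and 2. For the neuron list the sum was 3294 against 2195 and 2272. The chondrocyte list summed to 965 in TGF-β1 3, against 1279 and 1416 in the other TGF-β1 arrays. For the erythroid list the sum was 537 against 651 and 790, and for the glial list 1306 against 1471 and 1716. The adipocyte list summed to 3997 in TGF-β1 3 against 347 and 357 in the other TGF-β1 arrays and 390 to 625 in the controls, most of it from Fabp4, a fatty acid carrier also made by endothelium and macrophages, at 11.85. Of the 6 adipocyte markers 2 lay above the 90th percentile of all genes in this contrast, as did 5 of 9 macrophage markers, whose sum was 1695 in TGF-β1 3, 802 and 821 in the other TGF-β1 arrays and 821 to 1414 in the controls. Mesenchyme and endothelium markers each had a median of 0.72 in this contrast. The mesenchyme list summed to 19918 in TGF-β1 3 and to 12010 and 13041 in the other TGF-β1 arrays, and TGF-β1 3 was the highest array, control 3 aside, for 6 of 8 endothelial markers. The part of these cells in the member values was not tested.

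**Figure D4:**
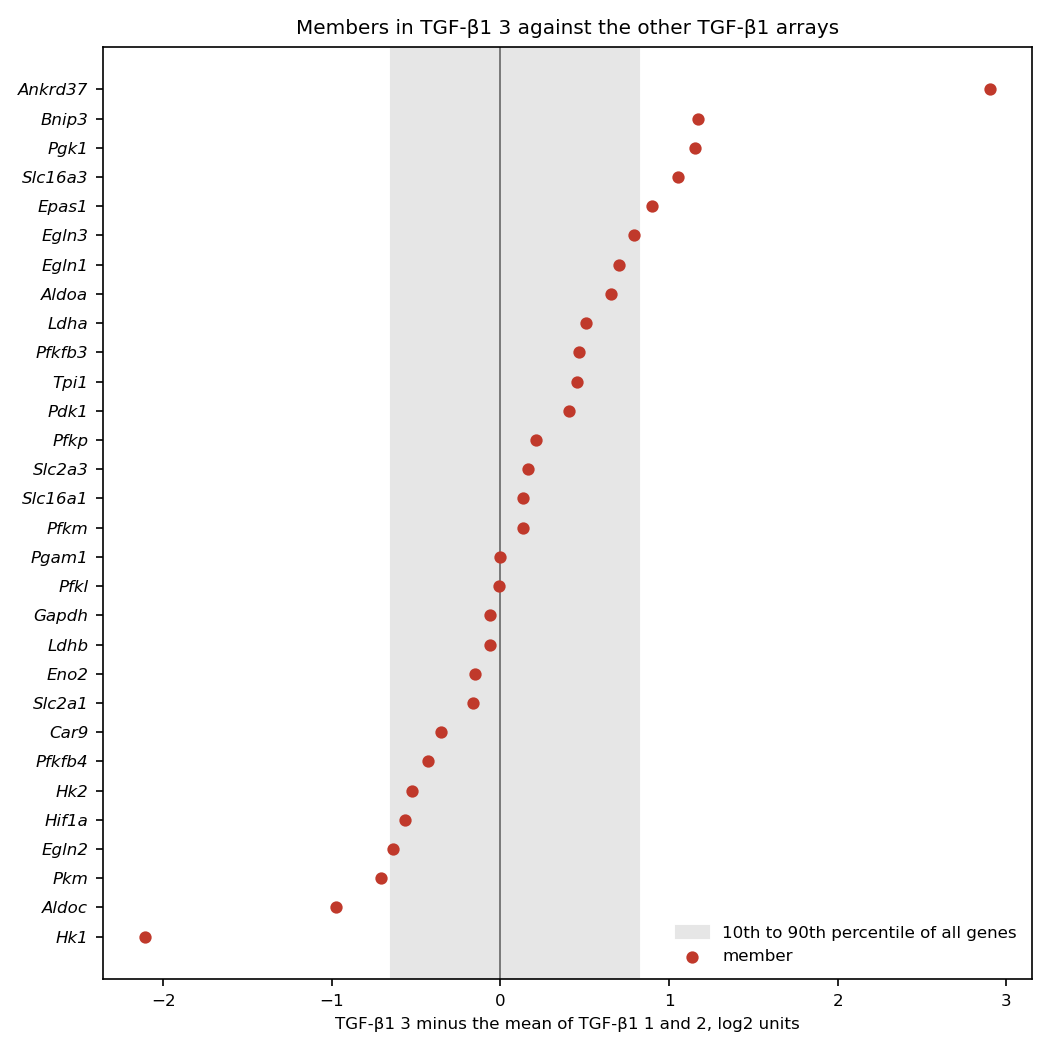
Log2 value of each member in TGF-β1 3 minus the mean of TGF-β1 1 and 2; the grey band runs from the 10th to the 90th percentile of all genes (-0.65 to 0.82). Ankrd37 at 2.90 and Hk1 at -2.11 lie farthest from the band.

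Other genes of the same pathways were counted from 5 further lists. In the array-weighted fit 3.45% of all genes rose and 3.44% fell, which is the background of each count. Of 34 other glycolysis and gluconeogenesis genes, 1 rose and 0 fell, with a median difference of 0.01. The 1 was Fbp1, fructose 1,6-bisphosphatase, which runs the phosphofructokinase step backwards in gluconeogenesis. It was at 6.66, 6.98 and 6.51 in the TGF-β1 arrays, against 5.74, 5.81 and 7.10 in the controls, and rose by 0.96 ± 0.15 (adjusted p = 0.0038 in limma's array-weighted fit; 0.0301 without control 3 and TGF-β1 3). Its difference was 0.50 in the unweighted fit, 0.30 without control 1 and 0.34 without control 2.

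Of 33 genes of pyruvate oxidation and the citrate cycle, 4 rose and 1 fell, beside 3.45% and 3.44% of all genes. Their median difference was 0.16. Pdk2, a pyruvate dehydrogenase kinase, was at 8.96, 8.94 and 9.06 in the TGF-β1 arrays, against 7.99, 7.70 and 9.24 in the controls, and rose by 1.18 ± 0.15. Its difference was 0.68 in the unweighted fit, 0.49 without control 1 and 0.35 without control 2. Pcx, which makes oxaloacetate from pyruvate, rose by 1.33 ± 0.26, although it was at 6.21 in TGF-β1 3, below both control 1 (6.69) and control 2 (6.30). The difference of Pcx was 0.34 in the unweighted fit, 0.53 without TGF-β1 1, 0.19 without TGF-β1 2, 0.56 without control 1 and 0.36 without control 2. Idh3a, a subunit of isocitrate dehydrogenase, rose by 0.60 ± 0.16, and differed by 1.92 without control 1 and 1.84 without control 2. Pdp1, the phosphatase that counters the kinases, fell by 0.88 ± 0.23, with the opposite sign in the unweighted fit (0.57), without control 1 (0.90) and without control 2 (1.05). It differed by -0.19 without TGF-β1 1, -0.52 without TGF-β1 2 and -0.55 without TGF-β1 3. Without control 3 and TGF-β1 3, 2 of the 5 passed, namely Pdk2 and Pcx. Of 9 pentose phosphate genes 1 rose, Taldo1 (transaldolase), by 0.62 ± 0.15; it differed by 1.46 without control 1 and 1.37 without control 2.

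Among 19 other oxygen-sensing genes and HIF partners 0 passed in the array-weighted limma fit, with 1 at an unadjusted p under 0.05, where 20.5% of all genes were, and the one of smallest p was Cited4, a co-regulator of transcription, at 0.39 ± 0.15 (adjusted p = 0.181). Of 48 other known HIF targets, 4 rose and 7 fell, beside 3.45% and 3.44% of all genes. Their median difference was -0.11. Car12, carbonic anhydrase XII, rose by 1.59 ± 0.25, while the glycogen-targeting subunits Ppp1r3c and Ppp1r3b rose by 1.09 ± 0.19 and 0.91 ± 0.18. Hmox1, haem oxygenase 1, fell by 1.41 ± 0.26, Ndrg1 by 1.39 ± 0.28 and Kdr, the VEGF receptor of endothelium, by 1.35 ± 0.19. The falls of Hmox1 and Ndrg1 were small in some other fits and kept most of their size in others. Without control 3 and TGF-β1 3, Hmox1 differed by -1.24 and Ndrg1 by -1.42, and with quantile normalization by -1.11 and -1.16. Unweighted, Hmox1 differed by -0.07 and Ndrg1 by -0.15. Without TGF-β1 1 and without TGF-β1 2, Hmox1 differed by -0.07 and -0.27, and Ndrg1 by -0.14 and -0.0090. Without control 1 and without control 2, Hmox1 differed by -0.31 and 0.11, and Ndrg1 by -0.53 and -0.24. Without TGF-β1 3 Hmox1 differed by -0.80 and Ndrg1 by -1.10. Car12 differed by 0.45 without TGF-β1 1 and 0.35 without TGF-β1 2, and Kdr by -0.60 without control 1, -0.46 without control 2 and -0.74 without TGF-β1 2. Of the 11 that passed, 1 higher and 4 lower genes also passed without control 3 and TGF-β1 3, among them Car12, Ndrg1 and Kdr. Over the 5 lists, 143 genes outside the 30 members were measured, of which 10 rose and 8 fell, beside the same shares of all genes.

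Epithelial and mesenchymal markers had medians of opposite sign in the array-weighted fit. The marker counts stand beside 3.45% of all genes that rose in it and 3.44% that fell. Of 14 gland epithelium markers 4 rose and 0 fell (median difference 0.60), among them Ehf, an epithelial transcription factor, by 1.71 ± 0.27. Of 11 mesenchyme markers 0 rose and 2 fell (median -0.44), namely Prrx1 by 1.03 ± 0.22 and Twist1 by 0.96 ± 0.20, both transcription factors of mesenchyme. In the unweighted fit the mesenchyme median was 0.33 and Prrx1 differed by 0.76, and without control 3 and TGF-β1 3 no mesenchyme marker passed, with a median of -0.39. Mesenchyme markers summed to 12010 to 19918 in the TGF-β1 arrays, against 16180 and 19658 in controls 1 and 2 and 2397 in control 3. Of 8 endothelial markers 1 fell, Kdr, of 5 erythroid markers 1 fell, Hbb-y, of 7 chondrocyte markers 1 rose, Sox9, by 0.68 ± 0.15, and of 12 skeletal muscle markers 0 passed, with 1 at an unadjusted p under 0.05 in limma's array-weighted fit. The part of these cell types in the member differences was not tested. Of 12 genes that every cell uses, 0 passed in that fit, with 4 at an unadjusted p under 0.05, beside the 20.5% of all genes. Actb was at 12.70 to 13.17 in the TGF-β1 arrays, against 13.34, 13.26 and 8.91 in the controls, and Ppia, Hprt and Tbp differed by 0.35, -0.04 and 0.04.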

How the data were processed

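Gene expression was measured in 6 arrays of cultured embryonic mouse salivary glands. The authors deposited 1 log2 value per probe set and array, from RMA per the submitters' processing notes, with no version given. RMA subtracts background, equalises distributions and summarises probes; control 3 nevertheless had an interquartile range of 2.05 against 3.17 to 3.26 elsewhere. Of 22206 probe sets, 19572 had 1 gene symbol, 0 had several and 2634 were unnamed here. For a gene with several, the brightest on average stood for it, leaving 19505 genes. Arrays carry no read depth, so their number limits the precision.

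Groups were taken from the sample titles and compared in R 4.3.3 by limma 3.58.1 (arrayWeights, lmFit, eBayes, two-sided). Group was the sole term, and p-values were adjusted over all genes (Benjamini-Hochberg). A difference is TGF-β1 minus control. Alternatives were an unweighted fit, left-out arrays, other weight estimation, normalization, centring, a filter on dim genes, averaged probe sets, another prior, the replicate number as a block, and thresholds of 0.01 and 0.1; the gene-by-gene weights were added after the data were seen. The members, the gene lists and the choice of the weighted fit were made with earlier results of these data known. Genes were named by rule: all members, and per list up to 3 passing genes per direction with the largest difference, or that of smallest p. Up to 3 markers were named per cell list with a passing gene. Fam162a and Fabp4 were named after their values were seen. Promoters and their coordinates are RefSeq's (GRCm38.p6).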

Additional observations from a re-analysis of the deposited data

How the results depend on the processing

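The calls depended on how control 3 and the other arrays were weighed. In the array-weighted fit, 672 genes were higher and 670 lower, among them 4 and 2 members and 10 and 8 other pathway genes. Without weights, and likewise with control 3 left out and no weights, all 6 counts were 0. Without control 3 and TGF-β1 3 they were 223 and 282 genes, 2 and 1 members, and 4 and 4 other pathway genes. With gene-by-gene weights they were 442 and 432, 2 and 2, and 6 and 7; with quantile normalization 224 and 226, 1 and 1, and 4 and 2; with median centring 128 and 137, 1 and 1, and 2 and 1. With dim genes left out and the weights estimated again, 2166 and 2183 of 13003 genes passed, with 6 and 4 members and 26 and 20 other pathway genes; the cause was not tested. At an adjusted p under 0.01 the counts were 262 and 276, 2 and 1, and 4 and 4, and at 0.1 they were 1031 and 1096, 6 and 2, and 16 and 13. With 1000 iterations the weights gave the same counts, and averaged probe sets and the trended prior kept every count within 1.5 times.

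Deviations of same-numbered arrays from their group means correlated at -0.0662, -0.0078 and -0.0501. Every control deviation is taken from a mean that holds control 3, so these values cannot decide whether the replicate numbers pair the arrays. With the replicate block, 1221 genes were higher and 1281 lower, with 5 and 3 members and 18 and 16 other pathway genes. With 1 array left out in turn, the counts ran from 0 to 245 genes higher and 0 to 299 lower, 0 to 2 and 0 to 1 members, and 0 to 3 and 0 to 4 other pathway genes.

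Some differences turned sign. Without weights these were Slc2a1 (1.36), Hk2 (0.39), Pfkm (0.0071), Pfkp (0.44), Pfkfb4 (-0.24), Aldoa (0.62), Ldha (0.76), Pdk1 (-0.23), Hif1a (1.29), Epas1 (0.26), Ankrd37 (0.83), Car9 (-0.38), Pdp1 (0.57) and Cited4 (-0.31). With control 3 left out and no weights they were Slc2a3 (6.1e-04), Slc16a3 (0.36), Aldoa (0.19), Ldha (0.080), Epas1 (0.25) and Ankrd37 (0.59). Without control 3 and TGF-β1 3 they were Slc16a3 (0.011) and Pdk1 (-0.0028), with gene-by-gene weights Slc16a3 (0.064) and Aldoa (0.0058), with quantile normalization Slc16a3 (0.14), Aldoa (0.019) and Epas1 (0.012), with median centring Slc16a3 (0.30), Aldoa (0.12), Ldha (0.020), Pdk1 (-0.0071) and Epas1 (0.075), and with the replicate block Pdk1 (-0.048). With 1 array left out in turn, differences that turned ran from -0.48 to 2.31 for Slc2a1, -0.32 to 0.20 for Slc2a3, -0.78 to 0.99 for Slc16a3, -0.92 to 1.32 for Hk2, -0.026 to 0.49 for Pfkl, -0.12 to 0.0040 for Pfkm, -0.23 to 0.63 for Pfkp, -0.41 to 0.49 for Pfkfb4, 0.011 to 0.75 for Aldoa, -0.085 to 1.01 for Ldha, -0.53 to 0.17 for Pdk1, -0.65 to 2.34 for Hif1a, -0.020 to 0.54 for Epas1, -0.27 to 1.05 for Bnip3, -0.26 to 1.29 for Ankrd37, -0.72 to 0.52 for Car9, -0.83 to 1.05 for Pdp1, -0.55 to 0.36 for Cited4 and -1.24 to 0.11 for Hmox1. The cause was not tested. The 6 members that passed kept their sign in all 17 alternatives, but their size ran from 0.14 to 1.96 for Hk1, 0.85 to 2.87 for Aldoc, 0.56 to 2.18 for Tpi1, 0.63 to 2.02 for Egln3, -1.75 to -1.24 for Pfkfb3 and -1.15 to -0.80 for Eno2. Pfkfb3 and Aldoc passed in 11 of them, Hk1, Eno2 and Egln3 in 6 and Tpi1 in 4, and their adjusted p reached 0.979 where control 2 was left out. These counts include the weights with 1000 iterations, which repeated the main fit. They also include averaged probe sets, where each member kept its own values because it had only 1 probe set. All 6 members passed in both settings, which therefore add little. The replicate block, with its limit given above, is also among the passes.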
